A study of Mus musculus with 6 samples.

Results

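The transcription factor Scl (gene Tal1), its closest relatives and the proteins that join it on DNA were examined in mouse Flk1+ mesoderm cells. They are 10 genes, named by their roles: the basic helix-loop-helix (bHLH) factors Tal1, Tal2 and Lyl1, the E proteins Tcf3 and Tcf12, the LIM-only proteins Lmo2 and Lmo4, the adaptor Ldb1, and the corepressors Cbfa2t3 and Cbfa2t2. Every probe set annotated with one of these symbols and no other was taken, which gave 22 of the 34958 probe sets that carry a single symbol, for 10 of 18194 genes. Of the 22, 20 passed the filter on dim values, and the 2 that did not belong to Tcf12 and Cbfa2t2.

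Mouse embryonic stem (ES) cells were grown for 2 days in a pre-embryoid body medium, plated at 100000 cells per well, cultured as embryoid bodies for 4 days and sorted by flow cytometry, and their total RNA was read on 6 Affymetrix arrays, 2 per group. SclKO cells came from a Scl knockout line made in J1 ES cells (129S4/SvJae) and were collected on Flk1 alone, although their titles call them Scl negative. WT Scl+ and WT Scl- cells came from the reporter line, R1 ES cells ((129/Sv x 129/Sv-CP)F1) with a human CD4 knock-in at Scl, and were sorted as Flk1+hCD4+ and Flk1+hCD4-. Both WT groups therefore carry the knock-in, and no source used here states whether it occupies a single Scl allele. In every SclKO comparison the Scl genotype, the parental ES line and the sort gate cannot be told apart. The labels do not state that replicates were separate cultures, so the p-values describe the spread between these arrays, which may be technical.

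Scl belongs to a class of bHLH factors that do not bind DNA alone but pair with an E protein and then recognise a short site called an E-box. In blood cells Lmo2 bridges this pair to Ldb1 and to a GATA factor, and Ldb1 can join such complexes to each other across distance. Cbfa2t3, also called Eto2, binds the complex and recruits corepressors. In mesoderm carrying Flk1, the receptor encoded by Kdr, Scl is required for cells to enter the blood lineage.

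The authors deposited values on a non-log scale, and levels here are the natural logs of these. The authors' conversion from logs is unstated: 1 log unit corresponds to 2-fold if the natural log is a log2 value of the RMA method, and to 2.72-fold if the deposited values are linear, so folds are given in that order. A value under an array's 40th percentile, 4.54 to 4.59, is called below the limit and has no exact level. A difference at the limit replaces such values by the limit itself, which makes it a lower bound for that probe set as long as dim values occur in the lower group alone. Levels of different probe sets are not compared with each other, because each probe set has its own response. Medians of the deposited values ran from 180.6 to 190.5 per array. WT Scl+ replicate 2 stood apart, with a Pearson r across probe sets of 0.967 to 0.978 to the other arrays, against 0.985 to 0.991 among the rest. Kdr lay between 10.83 and 11.35 on the 6 arrays, so the labelled Flk1 sort is matched by its transcript.

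The promoters of 4 genes are shown for the binding sites that a Scl complex reads. On the brightest probe set of each, the 3 groups were separate and in the same order (below). Sequences are RefSeq's, build GRCm38.p6, from 250 bases before to 50 after an annotated start. Capitals mark E-boxes (CANNTG), GATA sites (AGATAA, either strand) and, in Cbfa2t3, a composite of an E-box and a GATA core on the reverse strand, whose E-box is also counted on its own. The regions are chr4:115056176-115056475 for Tal1 (plus strand, the more upstream of its starts), chr4:53779451-53779750 for Tal2 (plus), chr8:84701207-84701506 for Lyl1 (plus) and chr8:122699060-122699359 for Cbfa2t3 (minus, its more upstream start).
Tal1: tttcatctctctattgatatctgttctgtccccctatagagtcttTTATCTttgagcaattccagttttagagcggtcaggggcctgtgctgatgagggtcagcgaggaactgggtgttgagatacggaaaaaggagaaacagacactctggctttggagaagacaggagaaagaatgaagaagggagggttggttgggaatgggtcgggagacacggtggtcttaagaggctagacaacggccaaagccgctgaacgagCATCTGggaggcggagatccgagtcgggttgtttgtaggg
Tal2: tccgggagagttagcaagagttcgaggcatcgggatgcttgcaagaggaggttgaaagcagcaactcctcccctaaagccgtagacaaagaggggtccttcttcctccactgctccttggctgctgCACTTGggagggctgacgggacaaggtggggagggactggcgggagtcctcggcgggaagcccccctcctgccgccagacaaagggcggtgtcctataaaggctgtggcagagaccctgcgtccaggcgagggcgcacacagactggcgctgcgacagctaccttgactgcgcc
Lyl1: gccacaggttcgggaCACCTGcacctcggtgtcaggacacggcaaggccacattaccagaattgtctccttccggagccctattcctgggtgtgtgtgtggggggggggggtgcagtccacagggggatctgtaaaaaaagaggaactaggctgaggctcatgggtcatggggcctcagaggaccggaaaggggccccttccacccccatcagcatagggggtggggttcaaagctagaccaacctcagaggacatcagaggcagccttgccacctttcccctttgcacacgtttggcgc
Cbfa2t3: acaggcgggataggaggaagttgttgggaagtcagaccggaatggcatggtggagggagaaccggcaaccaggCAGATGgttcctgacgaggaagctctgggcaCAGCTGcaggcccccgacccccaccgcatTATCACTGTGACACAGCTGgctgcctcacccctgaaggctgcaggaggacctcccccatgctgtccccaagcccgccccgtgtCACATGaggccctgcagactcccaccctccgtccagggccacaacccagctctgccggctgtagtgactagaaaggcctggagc

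The Tal1 window holds a GATA site (TTATCT as printed) at position -205 and an E-box at position 10 relative to the annotated start, whereas the window of the other Tal1 start holds neither. Tal2 has an E-box at position -124 and Lyl1 at position -235. The Cbfa2t3 window has 4 E-boxes. Its composite, TATCACTGTGACACAGCTG at chr8:122699208-122699226, has E-box and GATA core 9 bases apart, an arrangement of the kind known from Scl and Gata1 complexes in red cells. This composite lay in 1 of the 17 promoters annotated for 9 of the 10 genes and in 0.597% of 32851 mouse promoters of the same length. An E-box lay in 12 of the 17 and in 72.3% of all promoters, and a GATA site in 2 of the 17 and in 11.2% of all, so both shares were near the background. The ETS core GGAAG, bound by factors such as Fli1, also lay in 12 of the 17, against 71.4% of all promoters. These are matches of letters in a short window, not measured binding.

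Tal1, the targeted gene, read 5.71 and 6.14 in SclKO, 8.65 and 8.78 in WT Scl+, and 6.52 and 7.97 in WT Scl-. The groups did not overlap, with SclKO lowest, WT Scl+ highest and WT Scl- between them, where replicate 2 sat near WT Scl+ and replicate 1 near SclKO. Tal1 was knocked out in SclKO and its reporter set the WT gates, so this order was not independent of the design. SclKO lay below WT Scl+ with a difference of -2.79 log units (SE 0.46, limma adjusted p = 0.139), which is 6.91- or 16.2-fold, and the difference from WT Scl- was -1.32 (adjusted p = 0.895). WT Scl+ lay above WT Scl- by 1.47 log units (adjusted p = 0.47). Both SclKO values were above the limit, and no source used here states whether the probe set reads a part of the transcript that the knockout removes. In sorted bulk RNA, fewer cells that express a gene and less of its RNA per cell cannot be told apart, here and for every gene below.

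Tal2, a close relative of Scl first described in leukaemia and needed in the mouse midbrain, has 2 probe sets that read the same transcript. The brighter read 4.00 and 3.57 in SclKO, both below the limit, 8.26 and 8.67 in WT Scl+, and 4.69 and 7.49 in WT Scl-. Its groups did not overlap, and the WT Scl- arrays lay 2.80 log units apart. SclKO lay below WT Scl+ with a difference of -4.68 log units (SE 0.83, limma adjusted p = 0.148), or -3.90 at the limit, which is at least 14.9- or 49.5-fold. The difference from WT Scl- was -2.31 as measured and -1.53 at the limit (adjusted p = 0.895), and that between WT Scl+ and WT Scl- was 2.37 (adjusted p = 0.497). The dimmer probe set kept the same order of group means at a much smaller size. It read 3.92 and 3.44 in SclKO, 5.25 and 4.79 in WT Scl+, and 4.00 and 4.87 in WT Scl-, so its WT groups overlapped, and SclKO against WT Scl+ came to -1.34 log units, or -0.45 at the limit (adjusted p = 0.227).

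Lyl1, a relative whose protein can partly take the place of Scl in adult blood stem cells, read 4.06 and 4.23 in SclKO, 7.35 and 7.87 in WT Scl+, and 4.81 and 6.20 in WT Scl-. Both SclKO arrays were below the limit, and the 3 groups did not overlap. SclKO lay below WT Scl+ with a difference of -3.47 log units (SE 0.45, limma adjusted p = 0.135) and -3.05 at the limit, at least 8.26- or 21-fold. Against WT Scl- it was -1.36, or -0.94 at the limit (adjusted p = 0.895). WT Scl+ lay above WT Scl- by 2.11 log units (SE 0.45, adjusted p = 0.439).

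Lmo2, the LIM-only bridge of the complex, was far above the limit on every array. It read 10.32 and 11.37 in SclKO, 11.65 and 11.88 in WT Scl+, and 9.24 and 11.37 in WT Scl-. WT Scl+ lay above the other groups on both arrays, while SclKO and WT Scl- overlapped. SclKO minus WT Scl+ was -0.92 log units (95% interval -2.62 to 0.78, limma adjusted p = 0.609). Against WT Scl- it was 0.54 (-1.16 to 2.24, adjusted p = 0.983), and WT Scl+ against WT Scl- was 1.46 (-0.24 to 3.16, adjusted p = 0.594). These intervals are wide because the WT Scl- arrays were 2.13 and the SclKO arrays 1.05 log units apart.

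Lmo4, a LIM-only protein that also binds Ldb1 and is widely expressed, had its highest values in SclKO. It read 6.19 and 6.37 in SclKO, 5.98 and 5.60 in WT Scl+, and 5.44 and 5.88 in WT Scl-. SclKO lay above both WT groups without overlap, by 0.49 log units against WT Scl+ (SE 0.23, limma adjusted p = 0.431) and by 0.62 against WT Scl- (adjusted p = 0.895). The WT groups overlapped, with a difference of 0.13 log units (95% interval -0.42 to 0.68).

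Ldb1, the adaptor that dimerises and holds the LIM-only proteins, read 9.30 and 9.25 in SclKO, 9.26 and 9.74 in WT Scl+, and 9.18 and 9.30 in WT Scl-. All groups overlapped. Its differences were -0.22 log units for SclKO against WT Scl+ (95% interval -0.72 to 0.27), 0.03 for SclKO against WT Scl- (-0.46 to 0.53) and 0.26 for WT Scl+ against WT Scl- (-0.24 to 0.75). Differences of up to 0.75 log units thus lie within these intervals.

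Tcf3, which encodes the E proteins that commonly pair with Scl, has 3 probe sets, of which 2 share a source transcript. The brightest was the steadiest of the 22 probe sets over the 6 arrays. It read 7.99 and 8.10 in SclKO, 8.08 and 8.09 in WT Scl+, and 8.04 and 8.0 in WT Scl-, a whole range of 0.11 log units. Its 3 differences, -0.04, 0.03 and 0.07 log units in the order SclKO against WT Scl+, SclKO against WT Scl- and WT Scl+ against WT Scl-, had 95% intervals between -0.40 and 0.43. Of the other Tcf3 probe sets, 1426297_at lay higher in SclKO than in WT Scl+ without overlap, at 8.20 and 8.11 in SclKO and 7.85 and 7.77 in WT Scl+, by 0.34 log units (limma adjusted p = 0.43). The third, 1427764_a_at, had differences of 0.15 and 0.34 for SclKO and 0.19 between the WT groups.

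Tcf12, the gene of the E protein HEB, has 5 probe sets, and 4 were tested. The brightest read 9.16 and 9.09 in SclKO, 9.25 and 9.32 in WT Scl+, and 9.21 and 9.06 in WT Scl-, with differences of -0.16 (SE 0.15), -0.01 and 0.15 log units. Probe sets 1421908_a_at and 1446294_at gave differences between -0.12 and 0.32 log units. A dim Tcf12 probe set, 1439209_at, read 4.10 and 4.62 in SclKO, 3.69 and 3.64 in WT Scl+, and 5.50 and 4.34 in WT Scl-. WT Scl+ lay below WT Scl- with a difference of -1.25 log units (SE 0.39, limma adjusted p = 0.47), but both WT Scl+ arrays and WT Scl- replicate 2 were below the limit, so that no exact difference was measured, and with these set to the limit it was -0.49. The remaining probe set, 1439619_at, was below the limit on every array, from 1.98 to 3.08.

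Cbfa2t3, the corepressor, had separate groups on its brightest probe set, with SclKO replicate 1 below the limit. That probe set read 3.86 and 4.85 in SclKO, 8.54 and 9.71 in WT Scl+, and 5.46 and 7.45 in WT Scl-. The groups did not overlap, and they kept the order seen for Tal1, Tal2 and Lyl1. SclKO lay below WT Scl+ with a difference of -4.77 log units (SE 0.73, limma adjusted p = 0.136), or -4.43 at the limit, which is at least 21.5- or 83.9-fold. With a block on the replicate number this difference passed (adjusted p = 0.0454). SclKO against WT Scl- was -2.10, or -1.76 at the limit (adjusted p = 0.895), and WT Scl+ against WT Scl- was 2.67 (SE 0.73, adjusted p = 0.439).

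The other Cbfa2t3 probe sets showed much smaller differences, so the size holds for the brightest alone. That probe set ranked brightest through its WT Scl+ values, as its SclKO mean was 4.36, against 6.25 on 1418582_at. Probe set 1418582_at read 6.25 and 6.26 in SclKO, 7.14 and 6.88 in WT Scl+, and 6.19 and 6.56 in WT Scl-. SclKO lay below WT Scl+ with a difference of -0.76 log units (SE 0.19, limma adjusted p = 0.227), WT Scl+ lay above WT Scl- by 0.64 (adjusted p = 0.465), and SclKO lay within the WT Scl- range. Probe sets 1440963_at and 1440964_s_at, which share a source transcript, read low. The first gave -0.94 log units for SclKO against WT Scl+ (-0.74 at the limit) and 1.25 for WT Scl+ against WT Scl- (0.75 at the limit), where SclKO replicate 1 and both WT Scl- arrays were below the limit. The other gave -0.42 and 0.34, with 3 of the 6 arrays at or just below the limit. For SclKO against WT Scl- the differences were 0.31 on 1440963_at (0.01 with dim values at the limit), -0.12 on 1418582_at and -0.08 on 1440964_s_at, beside -2.10 on the brightest.

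Cbfa2t2, a corepressor of the same family also known as Mtgr1, stayed within a narrow range. Its brightest probe set read 7.73 and 7.89 in SclKO, 7.94 and 8.19 in WT Scl+, and 7.94 and 8.08 in WT Scl-. SclKO lay just below both WT groups, with differences of -0.25 log units against WT Scl+ (95% interval -0.67 to 0.16) and -0.20 against WT Scl- (-0.62 to 0.22). The WT groups differed by 0.05 (-0.36 to 0.47). Probe set 1456416_at gave differences between -0.14 and 0.11, and 1441615_at was below the limit on every array.

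**Figure D1:**
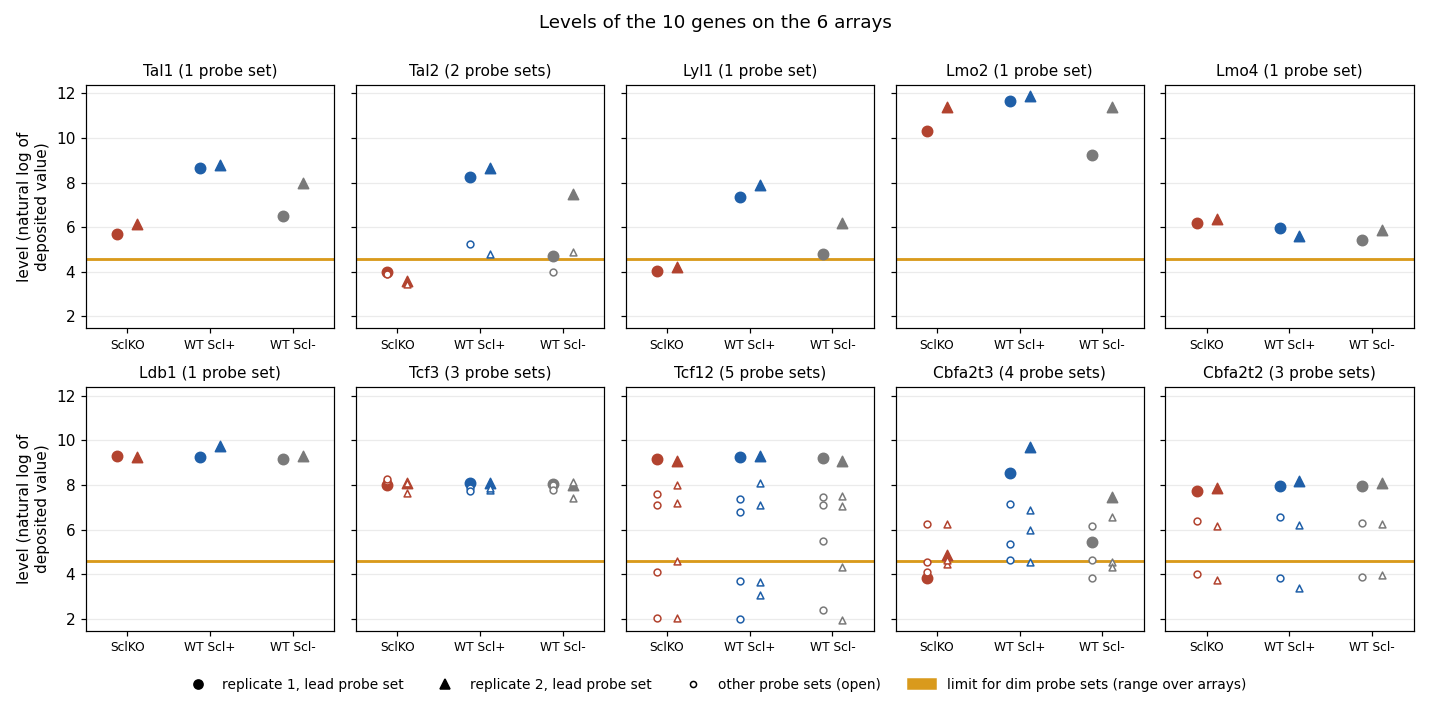
Level (natural log of the deposited value) of all 22 probe sets of the 10 genes in SclKO, WT Scl+ and WT Scl-. Circles are replicate 1 and triangles replicate 2, filled for the brightest (lead) probe set of a gene and open for its others, and the horizontal band is the limit for dim values (4.54 to 4.59): on the lead probe sets Tal1, Tal2, Lyl1 and Cbfa2t3 have separate groups with WT Scl+ on top, whereas Ldb1, Tcf3, Tcf12 and Cbfa2t2 stay within 0.56 log units over the arrays.

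Counts over the 20 tested probe sets were read against the whole array. Tal2 1460309_at and Cbfa2t3 1440963_at would not have passed the filter without their WT Scl+ arrays. WT Scl+ was also their highest group, so their part in the counts below was not independent of the filter. SclKO against WT Scl+ called 1 probe set as higher (0.00353%) and 2 as lower (0.00705%) of 28363 at an adjusted p under 0.05, and 0 of the 20. At an unadjusted p under 0.05, limma put 6 of the 20 lower (background 5.68%) and 0 higher (background 7.35%). The 6 were both Tal2 probe sets, 2 of Cbfa2t3, and those of Tal1 and Lyl1, thus 4 genes. Tal1 is counted in this way in every comparison. It was knocked out in SclKO and its reporter set the WT gates. Its part in the counts was thus not independent of the design. SclKO and WT Scl+ did not overlap for 10 of the 20 with SclKO lower (background 18.2%) and for 3 with SclKO higher (background 24.4%). The median difference was -0.24 log units over the 20 and 0.05 over all probe sets tested. Other settings called some of the 4 genes at an adjusted p under 0.05, all as lower in SclKO. With a block on the replicate number, Cbfa2t3 passed (adjusted p = 0.0454), where 0.0141% of all probe sets were called as lower. An intensity trend called Lyl1 (adjusted p = 0.0498), where 0.0811% were called as lower and 0.0494% as higher. A fit of these groups alone called Tal1, Tal2 and Lyl1 (adjusted p = 0.0495, 0.0296 and 0.0403), where 0.0917% were called as lower. Without WT Scl+ replicate 1, Lyl1 and Cbfa2t3 passed (adjusted p = 0.0428 and 0.0449), but 301 probe sets were then called as lower (1.06%) and 871 as higher (3.07%), and WT Scl+ replicate 2, the array that stood apart, was alone in its group. The calls for these 4 genes thus depended on the arrays, the block and the variance model used.

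In SclKO against WT Scl-, 0 of the 20 passed at an adjusted p under 0.05, where 1 probe set of 28363 was called as higher (0.00353%) and 2 as lower (0.00705%). At an unadjusted p under 0.05 by limma, 4 of the 20 were lower (background 2.77%), the brightest probe sets of Tal1, Tal2, Lyl1 and Cbfa2t3, and 1 was higher (background 2.7%), that of Lmo4. These counts fell when either SclKO array was left out, and their split by direction changed when either WT Scl- array was left out. Each such fit leaves 1 array in a group, and the share over all probe sets was not counted there. Without overlap of the groups, 7 of the 20 had lower values in SclKO (background 19.5%) and 2 had higher ones (background 21.7%). The median was -0.02 log units over the 20 and 0.01 over all probe sets.

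In WT Scl+ against WT Scl-, 0 of 28363 probe sets passed at an adjusted p under 0.05 in either direction (0%), the lowest adjusted p being 0.439, while 1260 were higher and 1400 lower at an unadjusted p under 0.05. At an unadjusted p under 0.05 by limma, 6 of the 20 were higher (background 4.44%), the same 4 genes with 3 probe sets of Cbfa2t3 (1 of them, 1440963_at, dim on both WT Scl- arrays), and 1 was lower (background 4.94%), the dim Tcf12 probe set. The total fell without either WT Scl+ array or without WT Scl- replicate 1, and rose without WT Scl- replicate 2. Such fits leave 1 array in a group, and the share over all probe sets was not counted in them. Without overlap, 9 of the 20 lay higher in WT Scl+ (background 16.6%) and 2 lower (background 21.2%). The median was 0.26 log units over the 20 and -0.04 over all. The 3 comparisons share arrays in pairs, so their counts are not independent of each other.

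**Figure D2:**
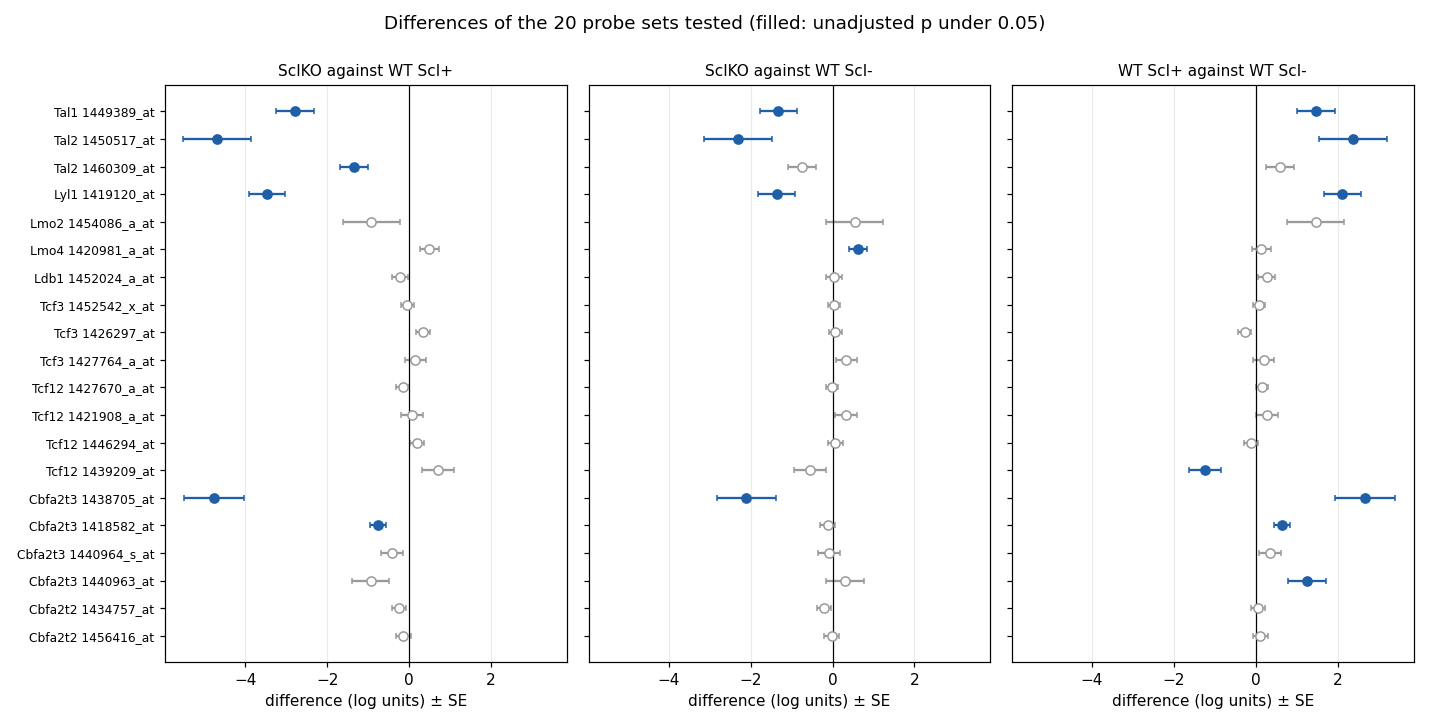
Difference in log units, with bars of 1 SE from the limma fit to all 6 arrays, for the 20 tested probe sets in the 3 comparisons; filled points have an unadjusted p under 0.05. In SclKO against WT Scl+ the 6 filled points are of Tal1, Tal2, Lyl1 and Cbfa2t3, all below 0 and as low as -4.77. Lmo4 lies above 0 at 0.49, and the Tcf12 point at 0.70 comes to 0.03 at the limit.

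For these genes the WT Scl- arrays stood apart more often than over all probe sets. Replicates 1 and 2 of WT Scl- lay over 1 log unit apart for 6 of the 20 probe sets, against 1.9% of all probe sets tested. In SclKO this held for 1 of the 20 (1.31% of all) and in WT Scl+ for 2 (6.83% of all). WT Scl- replicate 2 was the higher one for Tal1, Tal2, Lyl1, Lmo2 and Cbfa2t3, by 1.45, 2.80, 1.39, 2.13 and 1.99 log units on their brightest probe sets. On the remaining probe set, the dim Tcf12 1439209_at, replicate 1 was higher, at 5.50 against 4.34, the latter below the limit.

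Differences that involve WT Scl- therefore varied with the array used. WT Scl+ against WT Scl- came to 0.74 log units for Tal1 without WT Scl- replicate 1 and to 2.20 without replicate 2. The corresponding values were 0.98 and 3.77 for Tal2, 1.41 and 2.80 for Lyl1, 1.67 and 3.67 for Cbfa2t3, and 0.39 and 2.52 for Lmo2. SclKO against WT Scl- was -2.04 and -0.59 for Tal1, -3.71 and -0.91 for Tal2, -2.05 and -0.66 for Lyl1, and -3.09 and -1.10 for Cbfa2t3. For Lmo2 it was -0.53 without replicate 1 and 1.61 without replicate 2, so its direction turned. Over the arrays left out in turn, SclKO against WT Scl+ ranged less widely than SclKO against WT Scl- for Tal1 (-3.00 to -2.57), Tal2 (-4.90 to -4.47), Lyl1 (-3.72 to -3.21), Cbfa2t3 (-5.35 to -4.18) and Lmo2 (-1.45 to -0.39).

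Markers of endothelium and blood also differed between the WT Scl- arrays. The mean level of 6 endothelial markers was 5.41 and 6.29 in SclKO, 7.53 and 8.32 in WT Scl+, and 5.03 and 7.07 in WT Scl-. That of 7 blood markers was 4.57 and 4.70 in SclKO, 6.67 and 6.23 in WT Scl+, and 4.86 and 5.46 in WT Scl-, with Ptprc, the pan-leukocyte marker, below the limit on every array. WT Scl- replicate 2 was thus the higher WT Scl- array for both lists, as it was for Tal1. The 5 markers of Flk1+ mesoderm, Mesp1, Mixl1, Eomes and Pdgfra among them, averaged 10.22 and 10.06 in SclKO, 8.90 and 8.21 in WT Scl+, and 10.08 and 9.66 in WT Scl-. In SclKO against WT Scl+ the difference was negative for all 6 endothelial and all 6 tested blood markers. Of these, 5 and 6 had an unadjusted p under 0.05 by limma (background 5.68%). Tie1 and Spi1 among them would not have passed the filter without their WT Scl+ arrays, where they were highest. Of the markers tested for heart muscle, endoderm, undifferentiated ES cells and fibroblasts, at most 1 per list had such a p in any comparison. The background per direction ran from 2.7% to 7.35% over the comparisons. The 4 tested ES cell markers all had positive differences in SclKO as read, with a median of 0.83 log units against WT Scl+ and 0.94 against WT Scl-. The sizes varied by gene. In the same order, Nanog differed by 0.41 and 0.05, and Sox2 by 0.23 and 0.85 at the limit. Sox2 would not have passed the filter without its SclKO arrays, the group with its highest mean. Esrrb, not tested, read lower in SclKO, but only 1 array was above the limit. Pou5f1, a pluripotency factor, read 10.01 and 10.09 in SclKO, 9.26 and 7.79 in WT Scl+, and 9.0 and 8.92 in WT Scl-. The part of cell composition in the differences of the 10 genes was not tested.

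**Figure D3:**
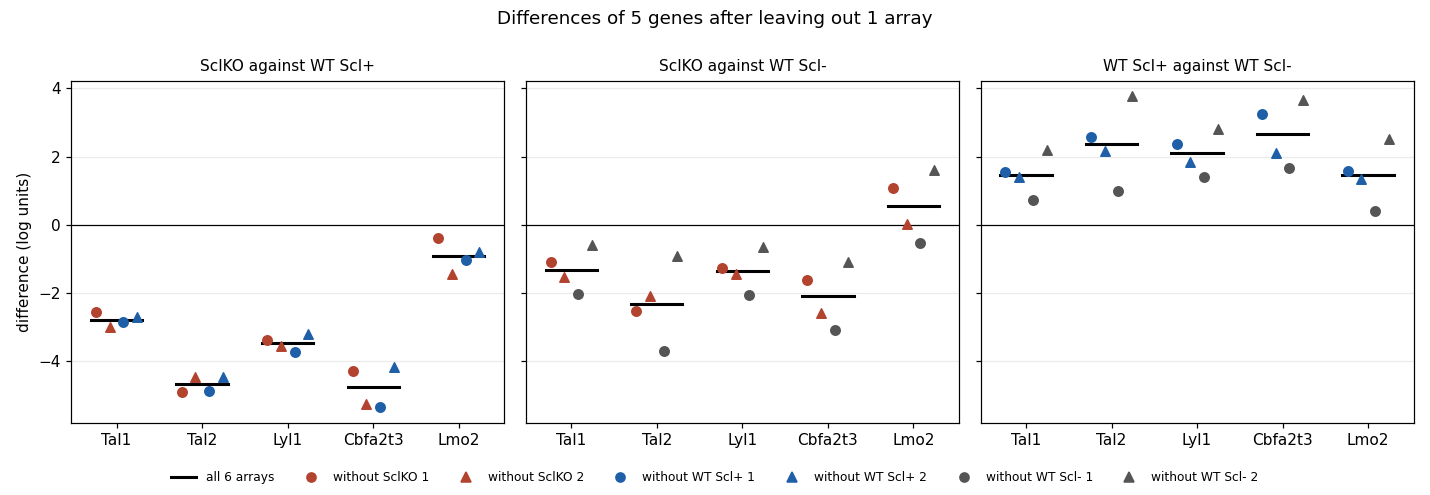
Difference in log units for the brightest probe sets of Tal1, Tal2, Lyl1, Cbfa2t3 and Lmo2 when each array of the groups compared is left out in turn (circles replicate 1, triangles replicate 2, coloured by group); the bar is the value from all 6 arrays. Differences from WT Scl- spread widely (Tal2 in WT Scl+ against WT Scl-, 0.98 to 3.77), and those of SclKO against WT Scl+ less so (Tal2, -4.90 to -4.47).

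Of 66 partner, relative and target genes on 6 lists, 62 had a probe set and 51 passed the filter, each read by its brightest probe set. None passed at an adjusted p under 0.05 in any comparison, and counts below are at an unadjusted p under 0.05 by limma, to be read against the backgrounds given above. SclKO against WT Scl+ had 9 of the 51 higher and 17 lower. SclKO against WT Scl- had 5 higher, namely Id1, Tcf4, Twist1, Ssbp2 and Gata3, and 2 lower, Gfi1b and Myb. WT Scl+ against WT Scl- had 16 higher and 5 lower.

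Among the third E protein gene Tcf4 and the Id inhibitors, which bind E proteins and keep them from DNA, 2 of 5 were higher and 1 was lower in SclKO against WT Scl+. Id1 read 8.51 and 8.84 in SclKO, 7.76 and 8.06 in WT Scl+, and 7.84 and 7.90 in WT Scl-. It lay above both WT groups without overlap, by 0.77 log units against WT Scl+ (limma adjusted p = 0.223) and 0.81 against WT Scl- (adjusted p = 0.837). Tcf4 lay above them by 0.37 and 0.49 log units (adjusted p = 0.421 and 0.895). Id4 took the other direction, at 8.23 and 8.76 in SclKO, 9.74 and 9.65 in WT Scl+, and 8.41 and 9.19 in WT Scl-, a difference of -1.20 for SclKO against WT Scl+ (adjusted p = 0.226). Id2 lay 1.39 log units higher in SclKO than in WT Scl+, but WT Scl+ replicate 2 alone read 5.51, against 6.85 to 7.77 on the other 5 arrays.

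Other tissue-specific bHLH factors, which also pair with E proteins, had 11 of 20 genes tested. The neighbours of Tal1 in this class, Nhlh1 and Nhlh2, were below the limit on every array. In SclKO against WT Scl+, 3 of the 11 were higher and 0 lower, with a list median of 0.00. Mesp1, a factor of early mesoderm, read 9.74 and 9.64 in SclKO, 8.16 and 8.33 in WT Scl+, and 10.01 and 9.43 in WT Scl-, and lay 1.45 log units higher in SclKO than in WT Scl+ (limma adjusted p = 0.136). Mesp2 differed by 1.79 log units and Twist1 by 0.89 in that comparison (adjusted p = 0.165 and 0.173). Against WT Scl-, Mesp1 differed by -0.03 log units and Twist1 by 0.84 (adjusted p = 0.998 and 0.82).

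Of 8 tested partners of LIM-only proteins and Ldb1, 3 were higher in SclKO than in WT Scl+ and 0 lower. They were the LIM-homeodomain factors Lhx1 and Isl1, which bind Ldb1 in other tissues, and Lmo1. Isl1 read 7.23 and 6.75 in SclKO, 5.57 and 5.01 in WT Scl+, and 7.53 and 6.68 in WT Scl-, so WT Scl+ lay below the other groups, and SclKO lay above it by 1.70 log units (limma adjusted p = 0.177). Lhx1 differed by 2.19 log units and Lmo1 by 1.33 for SclKO against WT Scl+ (adjusted p = 0.227 and 0.174). Ssbp2, which stabilises Ldb1, was at 7.48 and 7.51 in SclKO, 7.50 and 7.54 in WT Scl+, and 6.89 and 7.23 in WT Scl-, and lay above WT Scl- by 0.44 in SclKO and 0.46 in WT Scl+ (adjusted p = 0.898 and 0.514).

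Of 10 tested corepressor partners, 3 were lower and 0 higher in SclKO than in WT Scl+. Among the 3, Gfi1 would not have passed the filter without its WT Scl+ arrays, where it was highest. The histone deacetylase genes Hdac1, Hdac2 and Hdac3, the scaffolds Sin3a and Sin3b and the demethylase Kdm1a passed in no comparison. Gfi1b, a repressor of blood cells, read 4.27 and 4.00 in SclKO, both below the limit, 6.74 and 6.46 in WT Scl+, and 4.76 and 5.33 in WT Scl-. The difference of SclKO was -2.47 log units against WT Scl+ (SE 0.25, limma adjusted p = 0.11; -2.04 at the limit) and -0.91 against WT Scl- (adjusted p = 0.886; -0.48 at the limit). Gfi1 gave -2.36 against WT Scl+ (-1.71 at the limit), and Rcor1 gave -0.60 (adjusted p = 0.223 and 0.321).

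The DNA-binding partners had 6 of 8 lower and 1 higher in SclKO against WT Scl+, with a list median of -1.99 log units, beside 0.05 over all probe sets. Gata1 read 4.11 and 4.46 in SclKO, 7.48 and 6.08 in WT Scl+, and 4.93 and 5.22 in WT Scl-. Gata2 read 7.06 and 7.04 in SclKO, 9.22 and 9.46 in WT Scl+, and 6.59 and 8.42 in WT Scl-. These are the GATA factors that join the complex in blood cells and progenitors, and SclKO lay below WT Scl+ with differences of -2.49 (-2.21 at the limit) and -2.29 log units (limma adjusted p = 0.148 and 0.208). The ETS factors Fli1 and Erg differed by -3.58 and -3.09, and Klf1, a red cell factor, by -1.66 (adjusted p = 0.202, 0.255 and 0.336). Against WT Scl- the list median was -0.49 log units, with 0 of 8 lower and 1 higher, and SclKO overlapped WT Scl- for Gata2, Fli1 and Erg. Gata3 was named after its values were seen. It read 7.11 and 6.93 in SclKO, 5.91 and 6.03 in WT Scl+, and 6.22 and 5.87 in WT Scl-, above both WT groups by 1.05 and 0.97 log units (adjusted p = 0.148 and 0.781).

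Among 9 tested genes described elsewhere as bound or regulated by Scl complexes, 7 were lower and 0 higher in SclKO against WT Scl+, with a median of -1.77 log units. Myb, needed for definitive blood, read 4.10 and 4.48 in SclKO, 8.80 and 8.62 in WT Scl+, and 4.88 and 7.47 in WT Scl-. It differed by -4.42 log units against WT Scl+ (limma adjusted p = 0.148; -4.14 at the limit) and by -1.89 against WT Scl- (adjusted p = 0.898). The embryonic globin gene Hbb-bh1, the homeobox gene Hhex, the red cell and platelet factor Nfe2 and the platelet integrin gene Itga2b differed by -3.54, -2.29, -2.16 and -1.77 log units between SclKO and WT Scl+. Against WT Scl- the median of this list was -0.32 log units, with 1 of 9 lower. Mean blood and endothelial marker levels were also lower in SclKO than in WT Scl+, as given above. Itga2b, Gata1, Hbb-bh1, Klf1, Gfi1b and Cdh5 stand on both kinds of list.

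**Figure D4:**
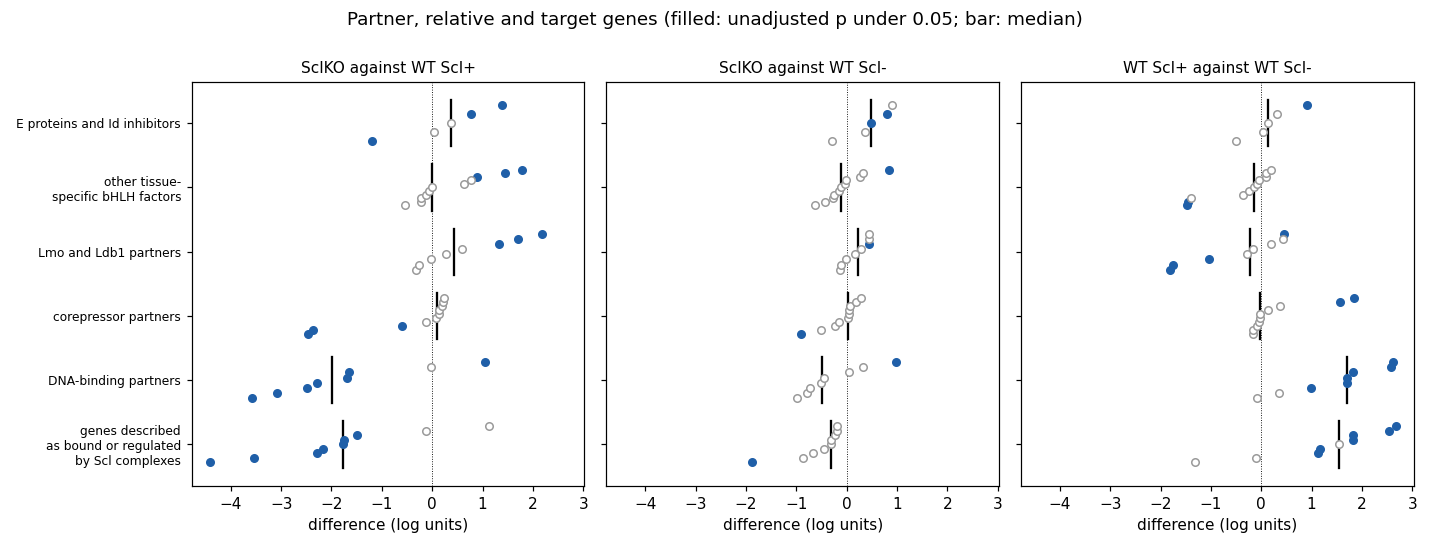
Difference in log units of each tested partner, relative and target gene, by list and comparison; filled points have an unadjusted p under 0.05 by limma, open points do not, and the vertical bar is the list median. DNA-binding partners and described targets lie to the left in SclKO against WT Scl+ (medians -1.99 and -1.77) and to the right in WT Scl+ against WT Scl- (1.70 and 1.55).

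Likeness between patterns was measured as the root mean square difference of levels over the 6 arrays. For each gene its brightest probe set was used, centred on its own mean but not scaled. The distance therefore grows with a difference in range, even where the order of groups is the same. Candidates were 2319 genes that spanned at least 1 log unit. Nearest to Tal1 were Rpp25 at 0.12, which encodes a subunit of ribonuclease P, Stat5a at 0.15, which encodes a cytokine signal transducer, Prkar2b at 0.22, Gad2 at 0.24 and Lgr5 at 0.26. Of the 10 genes, the distance to Tal1 was taken for Lyl1, Tal2, Cbfa2t3 and Lmo2 alone. Lyl1 was nearest, at 0.34, while Tal2 and Cbfa2t3 stood at 0.90 each and Lmo2 at 0.92. Tal2 and Cbfa2t3 kept the group order of Tal1 over wider ranges as read, 5.11 and 5.85 against 3.07 log units. For Lmo2, SclKO and WT Scl- overlapped. Rpp25 read 4.60 and 5.0 in SclKO, 7.29 and 7.68 in WT Scl+, and 5.13 and 6.66 in WT Scl-, following the same order of arrays as Tal1.

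Nearest to Lyl1 were Rnd2 at 0.26, Gad2 at 0.27, 2210408K08Rik at 0.28, Selenop at 0.31 and Rpp25 at 0.34. Nearest to Cbfa2t3 were Myb at 0.48, Wnk4 at 0.50, Tnfaip2 at 0.56, Sox7 at 0.58 and Fli1 at 0.63. Of Tal1, Tal2, Lyl1 and Lmo2, Tal2 was nearest to it, at 0.53. Lmo2 had other neighbours. Pde4b and Pcdhb22 both stood at 0.20, Tgfbr3 and Adgrf5 at 0.25 and Atf3 at 0.27, and as read they shared its low value on WT Scl- replicate 1. On that array Pde4b, Pcdhb22 and Adgrf5 were below the limit, as Pcdhb22 also was on SclKO replicate 1. How low they lay was thus not measured. All these distances come from the same 6 arrays, so they carry what those arrays share, including the gap between the WT Scl- arrays. Values below the limit entered as read, among them both SclKO values of Lyl1, Tal2 and Myb and 1 of Cbfa2t3, so the distances and ranks that use them are not exact.

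**Figure D5:**
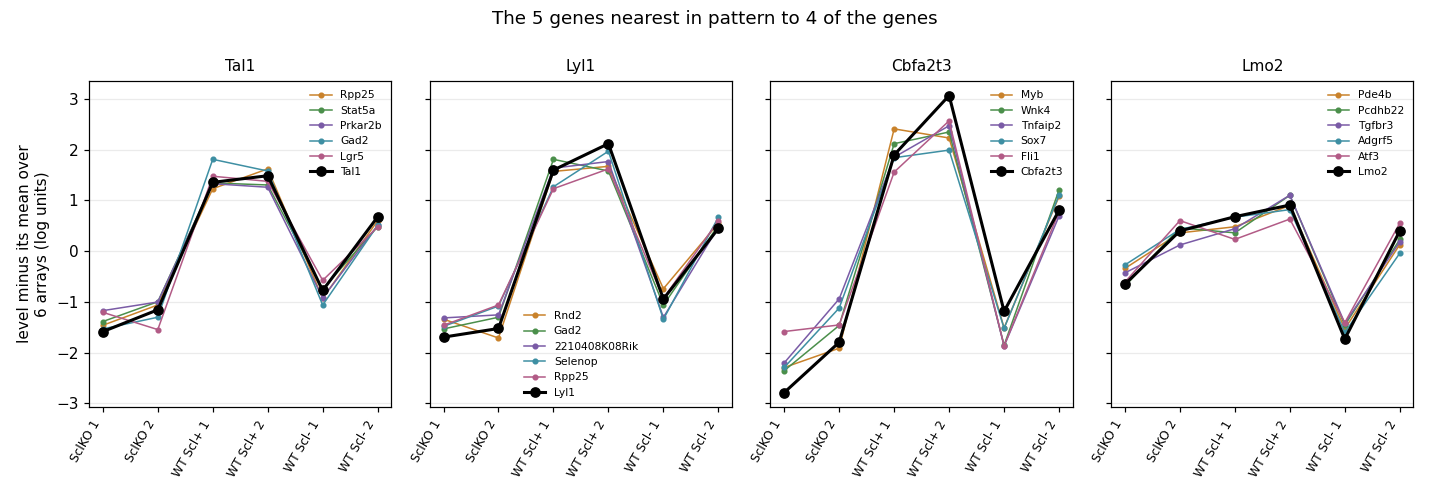
Level minus its own mean over the 6 arrays, in log units, for Tal1, Lyl1, Cbfa2t3 and Lmo2 (black) and the 5 genes nearest in pattern to each (coloured). Arrays run from SclKO through WT Scl+ to WT Scl-. As read, with values below the limit included, Lmo2 and its neighbours are lowest on WT Scl- replicate 1, whereas the other 3 are lowest in SclKO.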

How the data were processed

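Total RNA of 6 samples was measured on Affymetrix arrays. The deposited signal values were made by the authors; the submitters' processing notes name RMA, affy and limma without versions. RMA is a log2 method, yet the deposited values ran from 3.256 to 2822995, so the natural log was taken; the planned design had assumed log values. The unit is called signal here because the deposited table states none. The number of columns left unused was 0.

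The annotation gave 1 symbol for 34958 of 45101 probe sets, several for 932 and none for 9211. For 34754 the symbol was taken from RefSeq through the Entrez identifier, whether or not it changed. After 64 controls were removed, probe sets over the 40th percentile of an array on 2 or more arrays were tested, which left 28363. Group means were estimated from the 6 arrays together by limma 3.58.1 (R 4.3.3) and eBayes (residual df 3, prior df 3.13), two-sided, with Benjamini-Hochberg adjustment over all 28363. The fit was tested on simulated data. Intervals are 95%. Arrays have no read depth, so precision is limited by their number.

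Groups came from the sample titles and the sorting protocol. The 10 genes and the lists were chosen with earlier results of these data known. Each of the 10 was named with every probe set, together with up to 5 genes per list that had an unadjusted p under 0.05 in any comparison, by size of the largest difference, and the 5 nearest genes in pattern. The brightest probe set of a gene has the highest mean over the arrays. The alternatives tried were a block on the replicate number, other filters, scalings and variance models, and each array left out. Same-numbered arrays of different groups deviated together (r = 0.21 to 0.24 across probe sets in the 3 pairs of groups), although no label says what a number marks, so the blocked value is given where it changes a call. Promoters are RefSeq sequences of build GRCm38.p6, and motifs were searched on both strands.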

Additional observations from a re-analysis of the deposited data

How the results depend on the processing

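Under 16 alternatives, the differences of Tal1, Tal2, Lyl1 and Cbfa2t3 on their brightest probe sets turned sign in 0 of 183 values. Of these, 84 differed from the main value at 2 decimals, since several alternatives change the error alone. The 84 include values on log2 of the value plus 16, which are in another unit. The groups of these probe sets did not overlap. No sign could therefore turn when an array was left out, and the 0 was fixed in advance for those settings. Among 1211 values of single genes 25 gained a call at an adjusted p under 0.05, 0 lost one and 12 turned sign. Of the 25, 15 are 5 genes (Tal1, Tal2, Lyl1, Gata2 and Myb) in 3 settings that amount to the same fit of SclKO and WT Scl+, so 15 are distinct. Values that turned are given with their range over arrays left out. In SclKO against WT Scl+ they were Ldb1 (0.02 without WT Scl+ replicate 2; -0.46 to 0.02) and Tcf3 (0.01 without SclKO replicate 1; -0.09 to 0.01). In SclKO against WT Scl- they were Lmo2 (-0.53 to 1.61), Ldb1 (-0.02 to 0.09) and Tcf12 (-0.09 to 0.07), each turned without WT Scl- replicate 1, Tcf12 (0.03) and Tcf3 (-0.03 to 0.08) without SclKO replicate 2, and Tcf12 with median centring (0.01). In WT Scl+ against WT Scl- they were Cbfa2t2 (-0.07 to 0.17; -0.07 without WT Scl+ replicate 2, -0.02 without WT Scl- replicate 1) and Lmo4 (-0.08 to 0.35; -0.06 without WT Scl+ replicate 1, -0.08 without WT Scl- replicate 1). Calls over all probe sets, 3 for SclKO against WT Scl+, were 1 with 1 probe set per gene, 1 with every array above the limit, 37 with an intensity trend, 27 with these groups alone and 0 to 1172 with an array left out, the highest without WT Scl+ replicate 1. For SclKO against WT Scl-, also 3, they were 1 with 1 probe set per gene, 7 with array weights, 11 with the trend, 5 on log2 of the value plus 16, and 0 to 3 with an array left out. For WT Scl+ against WT Scl-, 0, leaving out an array gave 0 to 46, the highest without WT Scl+ replicate 1. At an unadjusted p under 0.05, the 20 probe sets of the 10 genes gave 2 with every array above the limit (13 tested) in each comparison, and 4 with 1 probe set per gene for WT Scl+ against WT Scl-. With an array left out they gave 5 to 9 for SclKO against WT Scl+, 0 to 5 for SclKO against WT Scl- and 3 to 9 for WT Scl+ against WT Scl-. Counts over the 51 listed genes were 11 with array weights for SclKO against WT Scl-, where leaving out an array gave 5 to 12, and 13 to 23 for WT Scl+ against WT Scl-. For these alternatives the share of all probe sets at an unadjusted p under 0.05 was not counted. The counts of the 20 and of the 51 there thus have no background and cannot be read as a result about these genes. An array left alone in its group was assumed to vary like the other groups. The cause of these changes was not tested.

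With the replicate number as a block, SclKO against WT Scl+ gave 6 calls and Cbfa2t3 passed (adjusted p = 0.0454), SclKO against WT Scl- gave 3 and WT Scl+ against WT Scl- 0; the block changed no other call of the 10 genes. With 2 arrays per group, levels below the limit give no exact value.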
